A study of Danio rerio with 3 samples.

Results

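Polycomb-marked chromatin that also carried acetylation was examined in the posterior trunk of zebrafish embryos. The intervals described here are stretches where H3K27ac was called in both replicates and which overlapped, by at least 1 bp, an H3K27me3 region belonging to a domain of 2 or more such regions. H3K27me3 regions were taken as 1 domain where the gaps between them were at most 3 kb. There were 580 of these intervals among 27647 H3K27ac intervals found in both replicates, or 2.10%. H3K27me3 of any kind was overlapped by 7.50% of them. A further 1494 lay on H3K27me3 regions that stood alone, and 25573 touched no H3K27me3 region. The intervals were chosen by the calls of both marks, so their number, their call strength and their overlap with H3K27me3 are descriptions.

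H3K27me3 is laid down on histone H3 by Polycomb repressive complex 2 and spreads over neighbouring nucleosomes to form repressed domains, typically at genes of developmental regulators. H3K27ac sits on the same lysine, is written by p300/CBP-type acetyltransferases and marks active enhancers and promoters. One histone tail cannot carry both at that residue, so signal of both marks at 1 place can come from neighbouring nucleosomes, from the sister H3 copies of a nucleosome, from different alleles or from different cells. In a tissue measured in bulk these cannot be told apart.

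The libraries were made by CUT&RUN, in which a nuclease tethered to an antibody releases the DNA around a histone mark, from wild-type embryos at 16 hours post fertilisation. H3K27ac was measured in 2 libraries, called replicates 1 and 2, and H3K27me3 in 1 library, so no value of H3K27me3 has a replicate. Whether separate clutches gave the H3K27ac replicates is not stated in the labels, and their spread may be technical. The deposited peak lists held 45534, 60427 and 17121 regions for H3K27ac replicates 1 and 2 and H3K27me3, on the build danRer11. The genome-wide background of the peak caller, a measure of depth, was 0.806, 1.10 and 0.370 tags per base in that order. No genes or sequences of that build were used here, so places are given by position, and the tissue label was not checked against marker genes. The level of a mark is given as its 10-kb tag density, which is the number of tags in the 10 kb around a peak divided by the genome-wide background, with a lowest possible value of 1. Regions are not replicates and H3K27me3 had 1 library, so no test was run. Shares carry 95% intervals by the exact method of Clopper and Pearson. These count sampling of regions alone and treat neighbouring regions as independent.

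Of the 17121 H3K27me3 regions, 6981 fell into 2792 domains of 2 or more regions. Domains of exactly 2 regions numbered 2006, those of 3 numbered 474, those of 4 numbered 158, and 154 domains held at least 5, with a maximum of 11. H3K27ac found in both replicates lay on 527 of the 2792 domains, or 18.9% (exact 95% interval 17.4 to 20.4%), against 15.2% of domains of any size, single regions included. A single interval was present in 475 of these domains, 2 intervals in 51 and 3 in 1. The 580 intervals came from 574 regions of replicate 1 and 561 regions of replicate 2, so some intervals share a region and its values. The domains with 2 or 3 intervals include cases where 1 region of a replicate met 2 regions of the other. The count depended on the replicates required, since replicate 1 alone gave 870 regions on such domains and replicate 2 alone gave 1166.

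Multi-region domains of different size held H3K27ac at shares whose intervals overlap, while the share per region fell with domain size. The share of domains with at least 1 interval was 17.4% (exact 95% interval 15.8 to 19.2%) for 2 regions, 22.4% (18.7 to 26.4%) for 3, 22.2% (15.9 to 29.4%) for 4 and 23.4% (16.9 to 30.9%) for 5 or more. A domain of more regions also has more places where an interval can lie. Counted per region, the share was 14.2% for single regions (exact 95% interval 13.5 to 14.8%), and 12.0% over all H3K27me3 regions. It was 10.1% in domains of 2 regions (9.20 to 11.1%), 8.65% in domains of 3 (7.24 to 10.2%), 6.33% in domains of 4 (4.56 to 8.52%) and 4.81% in domains of 5 or more (3.52 to 6.402%). The same order was found in each H3K27ac replicate alone. In replicate 1 the share fell from 19.98% on single regions to 8.20% in domains of 5 or more, against 17.3% over all regions. In replicate 2 it fell from 26.1% to 11.1%, against 22.9% over all regions. Median H3K27me3 density rose with size, from 3.19 on single regions to 9.40 in domains of 2 and 148 in domains of 5 or more. With both replicates required and a density of 1 to 5, single regions, domains of 2 and larger domains had shares of 16.4, 14.0 and 11.6%. In that order they were 10.6, 9.89 and 10.7% at 5 to 20 and 8.74, 7.62 and 10.6% at 20 to 50. At 50 to 100 they were 5.88, 4.31 and 6.60%, and in replicate 1 alone 13.97, 11.2 and 10.7%. The part of density was not tested.

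Edge and inside regions of a domain held H3K27ac at nearly equal shares. The comparison covered the 786 domains of 3 or more regions, where the first and last region are the edges and all others lie inside. In these domains 6.97% of all regions held H3K27ac. At the edges 110 of 1572 regions did, or 7.00% (exact 95% interval 5.79 to 8.37%), and inside 97 of 1397 regions did, or 6.94% (5.67 to 8.40%). Edge and inside regions had similar median widths of 456 and 446 bp. In replicate 1 alone the shares were 11.1% at edges and 10.95% inside, and in replicate 2 alone 16.3% and 13.9%. The excess of edges over inside regions was 0.117 percentage points in replicate 1 and 2.398 in replicate 2, or 1.26 ± 1.61 (SD, n = 2), which is less than the spread between replicates.

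Split by domain size, the intervals of the edge and inside shares overlapped in each class. In domains of 3 regions 8.44% of edge regions and 9.07% of inside regions held H3K27ac, and in domains of 4 regions 6.01% and 6.65% did. In domains of 5 or more the shares were 3.57% at edges (exact 95% interval 1.80 to 6.30%) and 5.44% inside (3.77 to 7.55%). Counted from the nearest end in these largest domains, the outermost regions held H3K27ac in 3.57% of cases, the next in 6.17% (3.75 to 9.47%) and all deeper ones in 4.68% (2.58 to 7.73%). These 3 intervals overlap, so no order along the domain can be read from them. At the level of whole domains, 88 of the 786 carried H3K27ac at an edge only, 70 inside only, 19 in both places and 609 in neither.

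**Figure D1:**
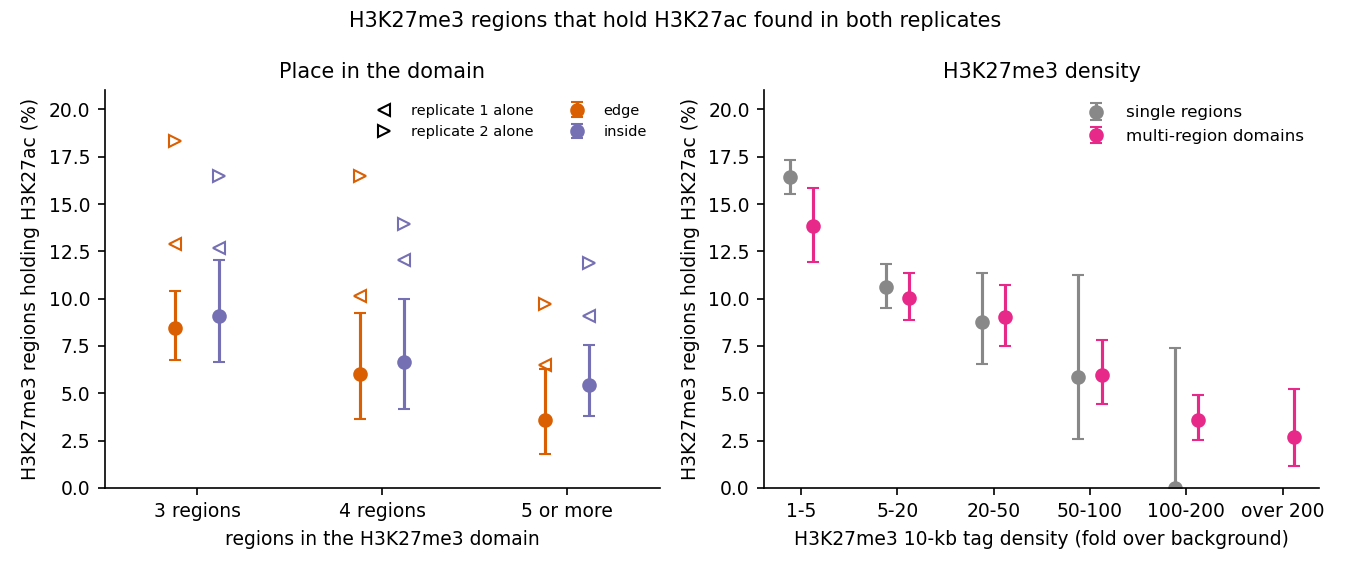
Share of H3K27me3 regions that hold H3K27ac found in both replicates (y axis, %), by place in the domain for domains of 3, 4 and 5 or more regions (left) and by H3K27me3 10-kb tag density for single regions and regions of multi-region domains (right). Filled points carry exact 95% intervals and, on the left, open triangles give each replicate alone; the edge and inside intervals overlap in each size class, and the shares fall from 13.8% to 2.69% with density in multi-region domains (single regions above 200, of which there were 6, are not drawn).

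H3K27ac was rarer at H3K27me3 densities above 100 than at lower ones. In multi-region domains the share of regions holding H3K27ac was 13.8% at an H3K27me3 density of 1 to 5 (exact 95% interval 11.9 to 15.9%) and 10.1% at 5 to 20. It was 9.01% at 20 to 50, 5.95% at 50 to 100, 3.57% at 100 to 200 (2.53 to 4.89%) and 2.69% above 200 (1.17 to 5.24%). Regions in the densest class were wider than in the sparsest, with medians of 559 and 261 bp. The intervals of the densest classes overlap. In replicate 1 alone the shares, from the sparsest class to the densest, were 18.6, 14.4, 14.6, 10.8, 6.85 and 7.41%, which is not a fall at every step. In replicate 2 alone they were 26.7, 19.8, 18.1, 14.5, 10.9 and 7.07%. Ranked instead by the deposited -log10 q of H3K27me3, the regions in these domains, cut into 3 equal classes from lowest to highest, held H3K27ac in 8.40, 9.47 and 8.47% of cases, so no fall was seen along that measure. The shares were 12.3, 13.4 and 14.4% in replicate 1 alone and 17.2, 18.8 and 18.7% in replicate 2 alone. These classes differed in width, with medians of 264, 406.5 and 774 bp, and the part of width was not tested.

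At equal H3K27me3 density, regions of multi-region domains and regions that stood alone held H3K27ac found in both replicates at close shares from 5 to 100, while each replicate alone had higher shares on single regions at 5 to 20. The shares on single regions were 10.6% at a density of 5 to 20, 8.74% at 20 to 50 and 5.88% at 50 to 100 (exact 95% interval 2.57 to 11.3%), against the 10.1, 9.01 and 5.95% of multi-region domains. In replicate 1 alone the share at 5 to 20 was 17.5% on single regions and 14.4% in multi-region domains, and in replicate 2 alone 23.7% and 19.8%, with exact 95% intervals that do not overlap in either replicate. At 50 to 100 the values were 13.97% and 10.8% in replicate 1 and 19.1% and 14.5% in replicate 2, with overlapping intervals. At 1 to 5 single regions were higher, at 16.4% (15.5 to 17.3%) against 13.8%, with a median density of 2.05 against 3.24 within that class. At 100 to 200 none of 48 single regions held H3K27ac found in both replicates, for an exact upper bound of 7.40%. Replicate 2 alone had calls on 10 of these 48, or 20.8%, and replicate 1 on none. Single regions were wider than regions of domains at equal density, with medians of 612 and 398 bp at 5 to 20 and of 968.5 and 481 bp at 20 to 50, and the part of width was not tested. Over all densities the median H3K27me3 density was 3.19 on single regions and 18.6 in multi-region domains. Between edge and inside regions of 1 density class the order was not stable: edges had the lower share in 5 of 6 classes with both replicates required, in 3 of 6 with replicate 1 and in 2 of 6 with replicate 2. Inside regions had the higher H3K27me3 density, with a median of 97.9 against 56.6 at the edges.

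Within a single domain H3K27ac lay more often on the stronger H3K27me3 region than on the weaker. Of the 2-region domains with H3K27ac on 1 of their regions, 289 had regions of unequal -log10 q, and H3K27ac lay on the higher of them in 178 domains, or 61.6%, where equal placement gives 1 in 2. The share was 60.3% of 398 domains in replicate 1 alone and 61.1% of 507 in replicate 2 alone. In domains of 3 regions the strongest region held the H3K27ac in 43.3% of 90 domains and the weakest in 23.3%, where equal placement gives 33.3%. In domains of 4 or more the strongest held it in 28.8% of 59 domains and the weakest in 5.08%, where equal placement gives 21.3%. Summit pileup gave the same order, with 62.0% on the region of higher pileup in 2-region domains. By the 10-kb density of H3K27me3, whose windows overlap within such a domain, the denser region held it in 48.6% of 286 domains.

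Width moved with this result. In 2-region domains the wider region held the H3K27ac in 58.8% of 289 domains. Where the stronger region was also the wider, it held H3K27ac in 63.7% of 212 domains (exact 95% interval 56.8 to 70.2%). Where the stronger region was the narrower, it did so in 55.6% of 72 domains (43.4 to 67.3%), an interval that includes equal placement. The corresponding shares were 62.5 and 54.6% in replicate 1 and 63.5 and 52.8% in replicate 2. The part of width in the result was not tested.

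**Figure D2:**
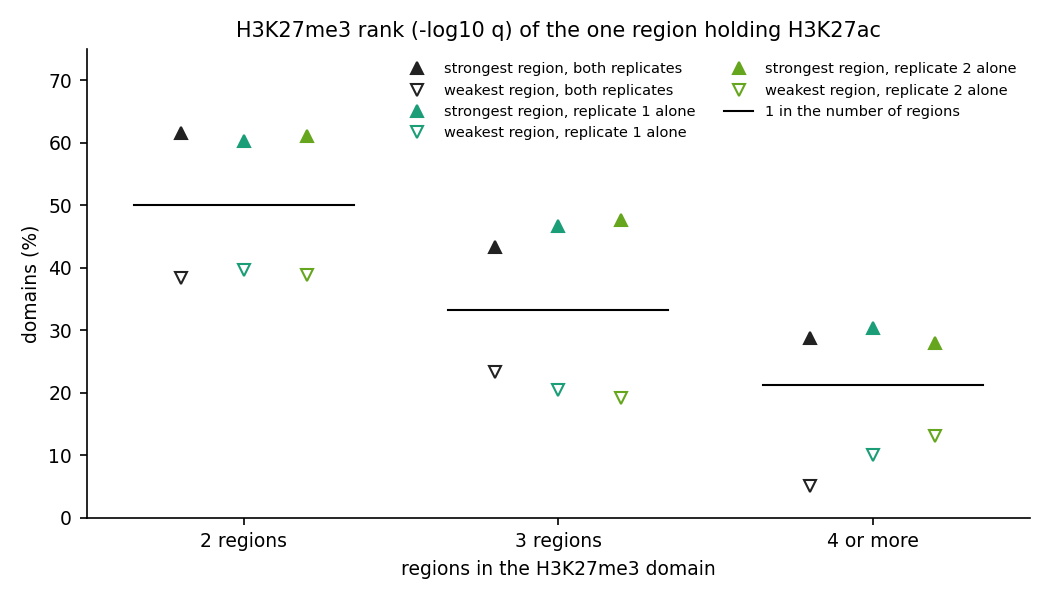
Domains in which H3K27ac lay on exactly 1 region, by the rank of that region's H3K27me3 -log10 q in the domain (y axis, % of domains; x axis, domain size). Upward triangles give the strongest and open downward triangles the weakest region, for both replicates required and for each alone, and the line marks 1 in the number of regions; in domains of 2 regions 61.6% lay on the stronger region.

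More of the bp of these intervals lay under H3K27me3 regions than beside them. The intervals measured 9 to 1529 bp, with a median of 339 bp, and 68.8% of their bp lay under H3K27me3, 12.6% in gaps between regions and 18.6% beyond the domain's ends. Wholly under H3K27me3 lay 228 of the 580, or 39.3%, against 24.1% of the intervals on single regions. The midpoint fell under a region in 467, beyond the domain's end in 66 and in a gap in 47. Summits of the marks were close together, with a median separation of 96.5 bp for replicate 2, which the choice of overlapping intervals favours. Some intervals were wider than their whole domain, such as the 1497 bp on chromosome 13 from 36957485 to 36958981, over a domain of 618 bp. Of the 101 intervals on edge regions only, 13 had their midpoint beyond the domain's end, 52 in the outer part of the edge region, 35 in its inner part and 1 in the gap.

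Gaps inside the domains were less often under H3K27ac than the regions they separate. A gap is a stretch without a called H3K27me3 region, and the H3K27me3 signal within gaps was not measured, so they need not be free of the mark. Of 4189 gaps, 49 were bridged by an H3K27ac interval that touched the H3K27me3 region on both sides. The bridged gaps had a median of 132 bp and at most 294 bp, where the median gap was 496 bp, and 3.07% of the 1597 gaps up to that length were bridged. A further 26 intervals, in 26 domains, lay in a gap and touched no H3K27me3 region. In domains of 3 or more regions, H3K27ac found in both replicates covered 2.99% of the bp of edge regions and 3.13% of those of inside regions. It covered 0.568% of the gaps next to an edge region, 0.480% of the inner gaps, and 0.992% of the 3 kb on either side of the domain. Over the genome, measured to the last called region of each chromosome, it covered 0.856%. In replicate 1 alone it covered 1.18% of inner and 1.03% of outer gaps, and in replicate 2 alone 1.39% and 1.97%, so the order of the gaps differed between replicates. The flanks had 1.75 and 2.63%, above both kinds of gap in each replicate. The genome had 1.38% in replicate 1 and 2.01% in replicate 2, so in replicate 2 the outer gaps were near the genome value.

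**Figure D3:**
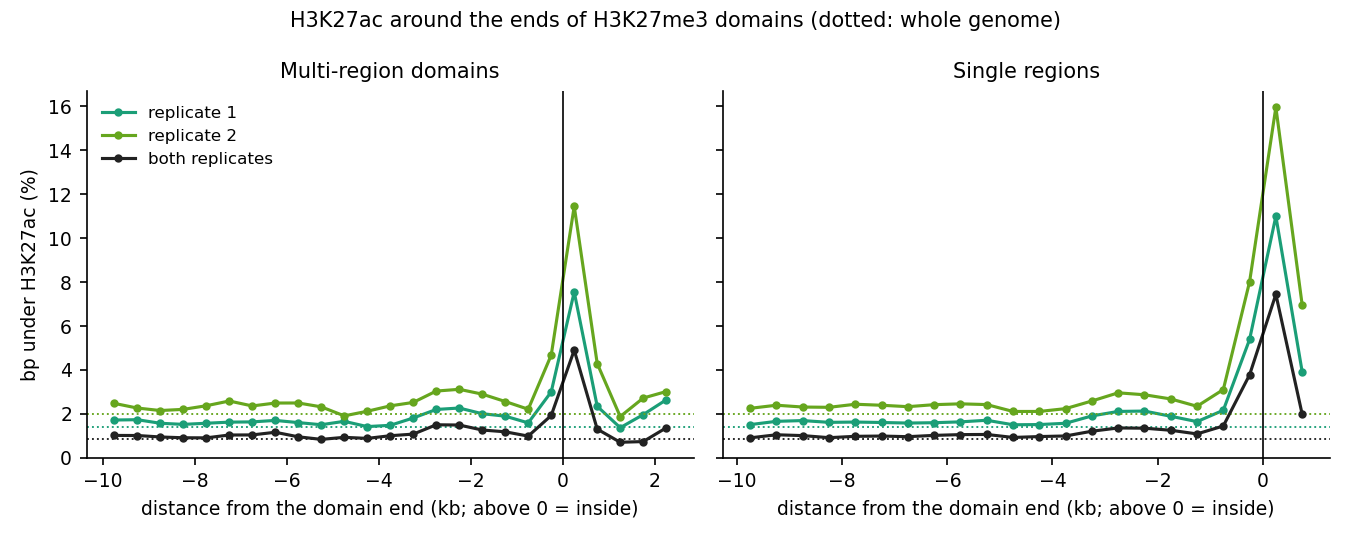
Bp under H3K27ac (y axis, %) in 500-bp bins by distance from the end of an H3K27me3 domain (x axis, kb; values above 0 lie inside, up to the domain's midpoint, and outside bins leave out other domains), for multi-region domains and single regions; dotted lines give each list's genome-wide value. Coverage by both replicates peaked at 4.90% in the first 500 bp inside a multi-region domain and was 0.708% from 1 to 1.5 kb inside.

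Along the domain the coverage by H3K27ac was highest at the ends, where by construction an H3K27me3 region lies. In the outermost 500 bp inside a multi-region domain 4.90% of bp were under H3K27ac found in both replicates, falling to 1.31% in the next 500 bp and 0.708% from 1 to 1.5 kb. Farther inside it varied between 0.308 and 2.305% over bins with ever fewer bp. Outside, 1.93% of the first 500 bp and 0.989% of the next 500 bp were covered. Between 2 and 3 kb outside the values were 1.49 and 1.504%, above the 0.840 to 1.08% found in the bins from 3 to 6 kb. Both replicates had this shoulder, with 2.202 to 2.27% in replicate 1 and 3.04 to 3.12% in replicate 2. Single regions had it too, with 1.35 to 1.36% by both replicates. By construction no H3K27me3 region lies within 3 kb of a domain's end, whereas bp in other domains were left out of the bins beyond.

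Among H3K27ac found in both replicates, the median acetylation level at these intervals was slightly below that elsewhere. By 10-kb density this held for domains of 2 regions but not for larger ones, and not where a call in 1 replicate was enough. The median H3K27ac density of the 580 intervals was 3.99 in replicate 1, with quartiles of 2.73 and 5.88 and a maximum of 20.1. It was 3.99 in replicate 2, with quartiles of 2.60 and 6.09 and a maximum of 18.7. The mean of the medians was 3.99 ± 0.00441 (SD, n = 2), against 4.09 ± 0.0775 on single H3K27me3 regions and 4.16 ± 0.0252 away from H3K27me3. In replicate 1 the medians were 3.99, 4.14 and 4.14, and in replicate 2 they were 3.99, 4.03 and 4.18. The intervals on multi-region domains thus had the lowest median in each replicate. Over all calls of a replicate, found in the other or not, multi-region domains had the highest median instead. In the same order of sets the medians were then 3.55, 3.52 and 3.10 in replicate 1 and 3.45, 3.16 and 2.69 in replicate 2. By domain size the mean of the medians was 3.86 ± 0.0238 for 2 regions and 4.44 ± 0.0358 for 3 (SD, n = 2 each). It was 4.31 ± 0.170 for 4 and 4.24 ± 0.288 for 5 or more (SD, n = 2 each). The last of these had 4.03 in replicate 2, below the 4.18 away from H3K27me3. The replicates had a log2 ratio of density with an SD of 0.27 over the 580 intervals and 0.26 away from H3K27me3. The median summit pileup of H3K27ac was 15.5 and 20 over the 580 intervals in replicates 1 and 2. It was 17 and 22 on single regions and 18 and 24 away from H3K27me3. By domain size it was 15 and 20 for 2 regions, 16 and 20 for 3, 15 and 21 for 4 and 17 and 18 for 5 or more. By pileup each size class thus lay below H3K27ac away from H3K27me3.

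By the strength of the call the intervals had lower medians than other H3K27ac found in both replicates. Over all calls of a replicate this did not hold against calls away from H3K27me3. Within the replicate 1 list, the median deposited fold of the peak over its local background was 3.82, against 4.17 on single regions and 4.06 away from H3K27me3. Within the replicate 2 list it was 3.72, against 4.21 and 4.18. The median -log10 q was 4.20 and 5.29 in replicates 1 and 2, against 5.14 and 6.68 on single regions and 4.96 and 7.05 away from H3K27me3. A -log10 q of at least 5 in both lists was reached by 28.6% of the intervals, by 43.9% of those on single regions and by 41.6% away from H3K27me3. Over all calls of each replicate, the median -log10 q on multi-region domains was 3.498 and 3.98 in replicates 1 and 2. Away from H3K27me3 it was lower, at 3.41 and 3.31, and on single regions higher, at 4.02 and 4.31. The 144 intervals at an H3K27me3 density of 1 to 5 had median folds of 4.32 and 4.35, above both other sets. Their median -log10 q was 4.88 and 6.19, below both.

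Edge and inside intervals had overlapping levels. The 101 intervals on edges had medians of 4.39 and 4.52 in replicates 1 and 2, or 4.46 ± 0.0939 (SD, n = 2). The 86 inside had 4.21 and 4.12, or 4.16 ± 0.0572. The 382 in domains of 2 regions had 3.85 and 3.88, or 3.86 ± 0.0238. The range between quartiles ran from 2.93 to 6.43 at edges and from 2.85 to 6.48 inside in replicate 1. The sets thus overlap almost fully, although the edge median of density was higher in both libraries. By the strength of the call the order was the reverse. The median fold was 3.68 and 3.42 at edges and 3.76 and 3.58 inside. The median -log10 q was 4.11 and 4.57 at edges and 4.23 and 5.33 inside. The 42 intervals in domains of 5 or more regions had median densities of 4.44 and 4.03.

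**Figure D4:**
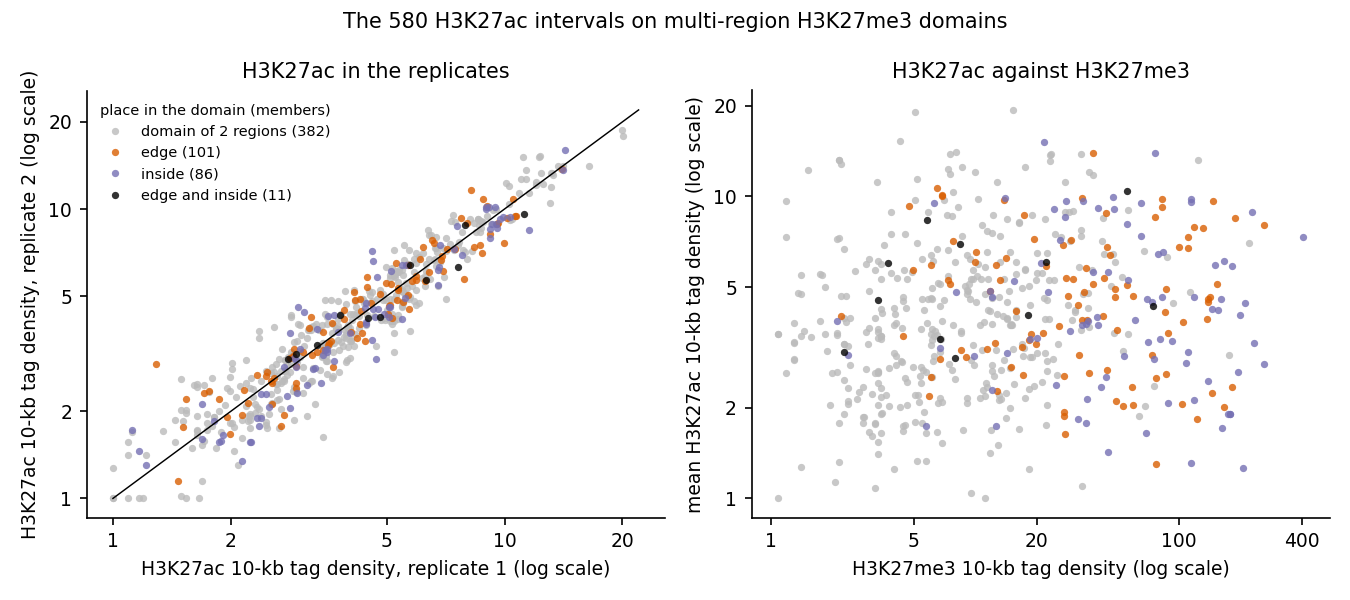
Each point is 1 of the 580 intervals, coloured by its place in the domain, on log axes: H3K27ac 10-kb tag density in replicate 2 against replicate 1 with the line of equality (left), and the mean H3K27ac density against the H3K27me3 density of the overlapped region (right). The replicates lie along the line with a log2 SD of 0.27, and edge and inside intervals span the same H3K27ac range.

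Where H3K27ac was called on these domains, its density was no lower at dense H3K27me3 than at the sparsest. Over the 580 intervals the Spearman rho between the densities was 0.17 in replicate 1 and 0.15 in replicate 2, across intervals that share libraries and chromosome neighbourhoods. Across the 1494 intervals on single H3K27me3 regions rho was -0.055 and -0.084. Intervals of multi-region domains at an H3K27me3 density of 1 to 5 had a median H3K27ac density of 3.40 ± 0.0161 (SD, n = 2). The median was 4.87 ± 0.0193 at 20 to 50, 4.35 ± 0.134 at 50 to 100 and 4.19 ± 0.196 at 100 to 200. For the 8 intervals above 200 it was 5.71 ± 0.0641, so the medians did not move 1 way at every step. The deposited fold of the 580 intervals fell with H3K27me3 density, with rho of -0.22 in replicate 1 and -0.34 in replicate 2.

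Counting 1 interval per domain, the highest 10-kb densities of H3K27ac on these domains came from chromosome 23, an unplaced scaffold and chromosome 19. Another interval of the first of these domains, with 16.4 and 14.0 in replicates 1 and 2, is left out by that count. On chromosome 23 from 36005484 to 36005813 the H3K27ac density was 20.1 in replicate 1 and 17.9 in replicate 2, at the right end of a domain of 2 regions with an H3K27me3 density of 5.08. On an unplaced scaffold from 818 to 2153 it was 19.996 and 18.7, at an H3K27me3 density of 15.4. The next, on chromosome 19 from 22062504 to 22062712, lay inside a domain of 3 regions with 14.3 and 15.9, at an H3K27me3 density of 21.7. The order of the first pair lies within the spread between replicates, and both stand above the third in each replicate. On chromosome 23 from 23398867 to 23399104 an interval inside a domain of 5 regions had 14.1 and 13.7, at an H3K27me3 density of 76.4. The interval on chromosome 2 from 11756650 to 11757035 had a mean of 14.1 ± 0.0158 (SD, n = 2). That on chromosome 5 from 27528015 to 27528530, at a domain's right edge, had 13.9 ± 0.178 (SD, n = 2). These intervals rank by the 10 kb around them and not by the strength of the call. Of those named by position here, only the scaffold interval had a deposited fold above the medians of all 580, 3.82 and 3.72, with 4.15 and 3.92. The others lay below both medians, down to 2.34 and 1.99 on chromosome 23 from 23398867.

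Of the 6 intervals at the densest H3K27me3, 4 lay inside a domain, 1 at an edge and 1 in a domain of 2 regions. Of all 297 regions of multi-region domains above a density of 200, with or without H3K27ac, 211 lay inside, 73 at an edge and 13 in domains of 2. On chromosome 13 from 29766675 to 29766954, inside a domain of 3 regions, the H3K27me3 density was 406, from 7507 tags, and H3K27ac was 7.44 in replicate 1 and 7.29 in replicate 2. That 10-kb density is above the median of 3.99 for these intervals in both libraries. Its deposited fold was 2.43 and 3.22, below their medians of 3.82 and 3.72. Its -log10 q was 1.79 in replicate 1, below the median of 4.20, and 5.72 in replicate 2, above the median of 5.29. The next was on chromosome 8 from 3085613 to 3085738, inside a domain of 4 regions, with an H3K27me3 density of 259.9 and H3K27ac of 2.73 and 2.83, below the median. On chromosome 5 from 49744558 to 49744773, at the left edge of a domain of 6 regions, H3K27me3 reached 258.6 and H3K27ac 8.63 and 7.504. The interval on chromosome 9 from 34641491 to 34641499 measured only 9 bp, the smallest of all, with H3K27ac of 2.83 and 3.72 in a domain of 5 regions with 232. Inside the domain of 8 regions on chromosome 2, the interval from 21170198 to 21170403 had H3K27ac of 9.20 and 8.56 at an H3K27me3 density of 227. The sixth, on chromosome 24 from 17260261 to 17260711, lay on the left region of a domain of 2 and had H3K27ac of 6.67 and 7.36 at 218.

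The sharpest H3K27ac peaks, by the lower of their deposited folds in the 2 lists, all lay in domains of 2 regions, as did 382 of the 580 intervals, with H3K27me3 densities of 1.73 to 14.9. The fold was 8.82 and 7.35 in replicates 1 and 2 on chromosome 3 from 18792180 to 18792838, with an H3K27me3 density of 5.51. It was 7.29 and 10.3 on chromosome 24 from 39226538 to 39227356, with 1.89, and 7.25 and 8.46 on chromosome 5 from 67249281 to 67250396, with 1.73. The other 3 of the 6, on chromosomes 13, 16 and 13 again, had H3K27me3 densities of 14.9, 2.97 and 4.92. The median H3K27me3 density of all regions in domains of 2 was 9.40, so 1 of the 6 lay above it. The widest interval, on chromosome 18 from 25050141 to 25051669, covered 1529 bp, and 449 bp of it lay on an edge and an inside region of a domain of 3.

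Only 1 domain held 3 intervals, and 51 held 2. Of those 51, the 5 with most bp under both marks are described, so their large shared stretches follow from that choice. The domain with 3 lay on an unplaced scaffold from 17221 to 19692, held 2 H3K27me3 regions with a density of up to 23.5, and had H3K27ac of up to 12.4 in replicate 1 and 15.2 in replicate 2. Here 2 of the 3 intervals came from 1 region of replicate 2 where replicate 1 had 2 regions. On chromosome 4 from 48616174 to 48618457 most of the domain was acetylated, and 1731 of its 2284 bp lay under both marks, with H3K27ac of up to 5.38 and 6.16. On chromosome 2 from 8016177 to 8017506 the shared stretch was 1044 of 1330 bp, with 5.58 and 5.09, and both intervals came from 1 region of replicate 2. In the domain of 3 regions on chromosome 25 from 34358359 to 34361004, H3K27ac lay on the inside region and the right edge, with up to 5.33 and 5.23.

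A pair of neighbouring domains on chromosome 21 belonged to this list as well. The domain from 37205249 to 37212780 had 4 regions, an H3K27me3 density of up to 47.7 and H3K27ac on both edge regions and on neither inside region. Its left interval had H3K27ac of 6.20 and 7.39 and its right interval 4.29 and 4.43, so the left edge was higher by more than the spread between replicates. The domain from 37219949 to 37227920 had 6 regions with H3K27me3 of up to 26.0. It carried H3K27ac on an inside region with 6.85 and 7.504, and at the right end across an edge and an inside region with 5.73 and 6.395. At its left edge a region was called in replicate 2 only. Over all domains with 2 or more intervals, neighbouring intervals lay a median of 826 bp apart, from 162.5 to 9603.5 bp, and 6 of these domains held 5 or more regions.

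**Figure D5:**
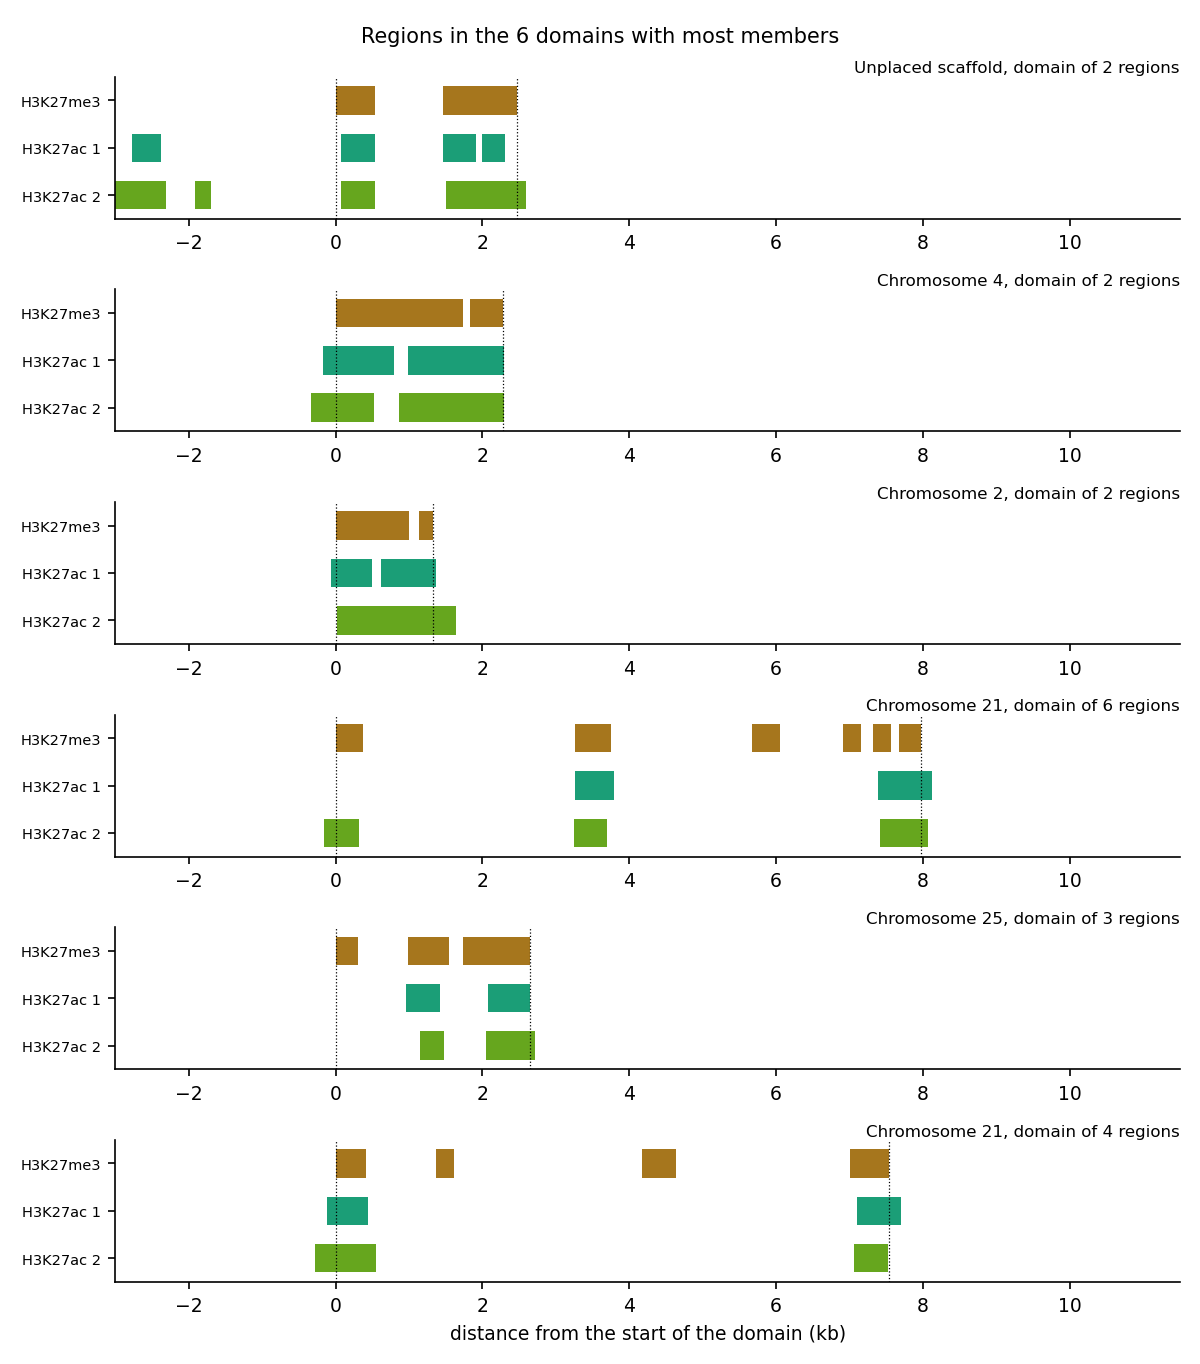
Called regions of H3K27me3 and of H3K27ac replicates 1 and 2 in the 6 domains with most intervals (ties by bp under both marks), drawn to scale by distance from the start of each domain (x axis, kb), with dotted lines at the domain's ends. H3K27ac covers most of the small domains on chromosomes 4 and 2, and lies on both outer regions of the 4-region domain on chromosome 21.

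Chromosomes differed in how many of their domains were acetylated. The share was 34.9% on chromosome 11 (exact 95% interval 24.9 to 45.9%, 30 of 86 domains) and 8.51% on chromosome 15 (3.75 to 16.1%, 8 of 94), with a median of 17.7% over 25 chromosomes. These extremes were picked after the values were seen. Chromosome 11 was highest in replicate 1 alone, at 44.2%, and in replicate 2 alone, at 58.1%. Chromosome 15 was lowest in replicate 1, at 14.9%, and next to lowest in replicate 2, at 25.5%. On single H3K27me3 regions chromosome 11 did not stand apart, with 15.8% and rank 7 of 25. The median of the highest H3K27me3 density per domain was 8.54 on chromosome 11 and 12.3 on chromosome 15.

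Several of the densest H3K27ac loci of the genome had multi-region domains nearby but none of these intervals. Over all multi-region domains only 527 of 2792, or 18.9%, held 1 or more, so a few domains without any are no departure from that share. Within 100 kb of the 7 loci with the highest H3K27ac density, at least 200 kb apart, there were 7 of the 580, at 3 of the loci. The locus on chromosome 9, at position 1963553, had 4 multi-region domains within that distance and none of these intervals, as did chromosome 19 with 5 domains and chromosome 16 with 2. On chromosome 11, intervals at 2158676, 2172342 and 2172509 had H3K27me3 densities of 114 to 142 and H3K27ac of 4.12 to 9.48 in replicate 1 and 5.16 to 10.2 in replicate 2. On chromosome 23 a domain of 2 regions carried a pair of intervals with H3K27ac of 16.4 to 20.1 and 14.0 to 17.9. On chromosome 3 the intervals at 23615554 and 23630664 had means of 10.3 ± 0.103 and 5.85 ± 0.597 (SD, n = 2 each). Chromosome 4 held 13 intervals, 4 of them beyond 30 Mb. The 13 lay on 12 of its 66 multi-region domains, or 18.2%, near the 18.9% over all such domains.

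About as many of these intervals as of other H3K27ac stood alone. No other interval found in both replicates lay within 10 kb of 49.0% of them, against 747 of 1494 on single H3K27me3 regions and 45.8% away from H3K27me3. Neighbours free of H3K27me3 were scarcer inside domains of 3 or more regions: 75.6% of the 86 inside intervals had none within 10 kb. The share was 67.3% of the 101 edge intervals and 57.6% of the 382 in domains of 2 regions. On single H3K27me3 regions it was 56.9%, close to domains of 2 regions, and away from H3K27me3 it was 47.9%. By construction inside intervals have further H3K27me3 regions on both sides, which their neighbours can overlap. With neighbours of any kind counted, 52.3% of inside and 51.5% of edge intervals had none, against 47.6% in domains of 2 regions.

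Calls on these domains were found in the other replicate more often than calls over the genome and less often than calls on single H3K27me3 regions. Of the 870 replicate 1 regions on multi-region domains, 67.5% (exact 95% interval 64.2 to 70.6%) overlapped replicate 2, against 59.3% of all. On single H3K27me3 regions 71.9% did (69.9 to 73.8%), an interval that overlaps that of multi-region domains. Of the 1166 replicate 2 regions there, 50.4% (47.5 to 53.3%) overlapped replicate 1, against 43.0% of all and 56.3% on single regions. In domains of 5 or more regions the shares were 59.4% of 69 and 42.3% of 97, near those of all calls. Finding in both replicates is part of how the intervals were chosen.

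Intervals at the limits of the definition were as follows. The smallest overlaps were 2 bp on chromosome 21 from 19906612 to 19907059, with H3K27ac of 10.7 and 9.47, and 4 bp on chromosome 12 from 44910580 to 44910861, with 3.002 and 3.09. Just outside, an interval on chromosome 2 from 33276481 to 33276542 touched an H3K27me3 region of density 84.7 without overlapping it and had 3.03 and 4.12. An overlap of at most 100 bp was seen in 55 intervals, with median H3K27ac of 3.42 and 3.36. Another 22 lay off H3K27me3 but within 100 bp of such a domain's region, with medians of 2.95 and 2.83. Both sets were below the 3.99 of all 580 intervals in each replicate. Gaps at most 100 bp under the 3-kb limit joined 20 of the 2-region domains, which held 8 intervals. Another 11 pairs of single regions had gaps at most 100 bp over it and held 3. All 2006 domains of 2 regions held 382 intervals, and all 10140 single regions held 1494. The numbers at the limit are small, so no contrast across it is drawn.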

How the data were processed

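H3K27me3 (1 library) and H3K27ac (2 libraries) were profiled by CUT&RUN in wild-type posterior trunk. The build was danRer11 and the tools were MACS2 (version 2.2.7.1), Bowtie2 (version 2.4.5), cutadapt (version 4.1), bedtools (version 2.30.0), Picard (version 3.0.0) and SAMtools (version 1.16.1), per the submitters' processing notes. The sources used here do not state their order, their settings or a control library. The deposited peak lists, 1 per library, hold lines with a fold (ratio over local background), a p-value and q-value as -log10, and a score, the -log10 q times 10, per the authors' lists; the other deposited column is the summit position.

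Touching lines were merged, the mitochondrial genome was dropped, and each region kept its highest values. Fold and p together give the summit pileup and the local background, which was read as tags in 10 kb, each adding 0.02. Each line was solved to within 0.001 in -log10 p. Where several solutions existed (369 lines of H3K27me3 and 102 of H3K27ac replicate 1), the one nearest a whole number of tags was taken. That reading comes from the values. Depth beyond this background is unknown. H3K27ac replicates were intersected in bp. Inversion and placing were tested on simulated data with known answers.

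The intervals, lists and tests were chosen with earlier results of these data known. Places named are the 6 domains with most intervals (ties by the bp under both marks), the 6 intervals highest in H3K27ac density, in H3K27me3 density (1 per domain each) and in the lower fold, the widest intervals, and those at the limits; other places (near dense loci, chromosomes) were chosen after their values were seen. No annotation of this build was used here, so genes, gene lists and sequences are left out. The settings varied were the q threshold (-log10 q of 5 or more), gaps of 1 and 10 kb, single replicates, either replicate, larger overlaps, equal list lengths, and fewer chromosomes. Computations ran in Python (version 3.11.15) with scipy (version 1.17.1), pandas (version 2.3.3), numpy (version 2.4.6) and matplotlib (version 3.10.9).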

Additional observations from a re-analysis of the deposited data

How the results depend on the processing

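Edge regions held H3K27ac more often than inside regions under 6 of 10 alternatives and less often under 4, so their order depended on the setting. The largest changes came from stricter calls and from the replicates required. A -log10 q of at least 5, required of H3K27me3 as well, left 891 multi-region domains, with 596 edge and 482 inside regions. With it there were 40 intervals, on 4.38% of domains, 1.34% of edge and 2.07% of inside regions, and a median H3K27ac density of 5.04. The main setting had 580, 18.9%, 7.00%, 6.94% and 3.94. With the H3K27ac lists shortened to the length of the H3K27me3 list, which kept all its regions, these were 174, 6.05%, 1.97%, 2.51% and 5.10. With a peak in either replicate they were 1452, 42.8%, 20.1%, 17.8% and 3.36. Leaving out H3K27ac replicate 1 or 2 gave 870 to 1166 regions on 27.5 to 35.9% of domains, 11.1 to 16.3% of edge and 11.0 to 13.9% of inside regions, and densities of 3.45 to 3.55. Gaps of at most 1 kb gave 385 intervals, 15.1% of domains and a density of 3.86, and gaps of at most 10 kb gave 919, 23.8%, 8.92% of edge regions and 4.02. An overlap of at least 100 bp gave 17.2% of domains and a density of 3.98. With 50% of the interval under H3K27me3 it was 14.1% of domains, 5.41% of edge and 5.58% of inside regions, and 3.83. The cause of these changes was not tested, beyond the number of calls that each alternative leaves. Without chromosome 4 and unplaced scaffolds the values were close to the main ones. No paired analysis was possible because only number 1 is shared by both antibodies and no test across samples was run. Depth was lowest for H3K27me3, which has no replicate.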
